A study of Mus musculus with 6 samples.

Results

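Genes for secreted factors that muscle and other tissues release under stress or during exercise were examined on microarrays of skeletal muscle from Rpt3-/- and Rpt3+/+ mice. The set held 9 genes: Gdf15, Fgf21, Fgf9, Nppa, Nppb, Il6, Il15, Metrnl and Fndc5. On the array 18563 genes could be named. These genes were selected on their measured log2 differences between Rpt3-/- and Rpt3+/+ arrays and on their role as secreted factors, so their values in that comparison are a description and carry no test. A named probe was found for 8 of the 9 genes, and Nppa, the atrial natriuretic peptide gene, is named only. Fgf9 had a second probe, and the other 7 genes had 1 probe each.

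Rpt3 (Psmc4) encodes an ATPase subunit of the 19S cap of the proteasome. Rpt3-/- mice carried floxed Rpt3 alleles and Cre recombinase driven by the promoter of fast myosin light chain 1 (Mlc1f), and Rpt3+/+ mice carried the same Cre with wild-type Rpt3, so Cre was common to all animals. The sample labels name the groups Rpt3 null and control, and give each of them the same strain, mlc1f-Cre with floxed Rpt3. The Mlc1f promoter is active in skeletal muscle and not in the heart, and in adults in fast-twitch fibers. The study cites incomplete excision by this Cre. It proposes that unexcised alleles, and possibly other cell types in the muscle, account for the Rpt3 protein that remained. All mice were female and 6 weeks old, with 3 Rpt3-/- and 3 Rpt3+/+ mice and 1 array per mouse. The labels give the muscle as tibialis anterior, whereas the study's text gives gastrocnemius for the arrays. RNA came from whole muscle, in which fewer cells of a type and less RNA per cell cannot be told apart.

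Gdf15 is a distant member of the TGF-beta superfamily that many tissues secrete when the integrated stress response is active, and Fgf21 is a hormone-like fibroblast growth factor induced by the same response, best known from liver. Nppa and Nppb encode the atrial and brain natriuretic peptides, which the heart releases under stretch and which raise cyclic GMP through the receptor encoded by Npr1. Fgf9 is a paracrine growth factor, Il6 and Il15 encode cytokines that muscle can release, and Metrnl and Fndc5 encode a secreted meteorin-like protein and the membrane precursor of irisin.

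On the deposited scans the deleted gene, Psmc4, was lower in Rpt3-/- muscle by its brighter probe, with log2 normalized intensities of 9.78 to 10.01 on Rpt3-/- arrays and 10.91 to 11.16 on Rpt3+/+ arrays. Its dimmer probe was above background on 2 arrays of each group and differed by -0.23 on the log2 scale. The share of transcript probes above background was 68.9% to 72.4% on Rpt3-/- arrays and 56.7% to 74.2% on Rpt3+/+ arrays, lowest on Rpt3+/+ array 2. Of 14724 genes tested, 1869 were higher and 968 lower in Rpt3-/- muscle at an adjusted p under 0.05 from limma, a linear model fitted over all genes. That is 19.3% of the genes tested, 12.7% in the upward and 6.57% in the downward direction. The arrays of Rpt3-/- and Rpt3+/+ mice did not overlap for 36.7% of the genes, and the median log2 difference over all genes was -0.01. Summed intensities of 11 fast skeletal muscle markers were 202902 to 214776 on Rpt3-/- arrays and 215186 to 235278 on Rpt3+/+ arrays. None of the 11 was at background on all arrays. Of 7 tested, Myl1 (-0.85) and Actn3 (-0.64) were lower, Myh1 (0.70) was higher and 4 did not pass. Ckm, Acta1, Tnni2 and Mylpf were not tested, since their spots were saturated on most arrays. Saturated spots can hide a difference, so the sums do not measure the content of fast fibers.

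The sequence before the start of the genes is shown for Nppb and Gdf15, which differed most between the groups among the 7 genes tested. It is also shown for Fgf21, which shares an inducing pathway with Gdf15 and was at background. The sequences are from RefSeq (GRCm38.p6) and are given 5′ to 3′ on the strand of the gene, at chr4:147985650-147985785 on the plus strand, chr8:70632471-70632706 on the minus strand and chr7:45615491-45615740 on the minus strand. Bases inside an annotated gene span were left out. Capitals mark a match to a motif searched.
Nppb: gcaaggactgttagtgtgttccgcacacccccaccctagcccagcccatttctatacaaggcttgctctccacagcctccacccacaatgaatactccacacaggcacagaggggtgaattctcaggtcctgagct
Gdf15: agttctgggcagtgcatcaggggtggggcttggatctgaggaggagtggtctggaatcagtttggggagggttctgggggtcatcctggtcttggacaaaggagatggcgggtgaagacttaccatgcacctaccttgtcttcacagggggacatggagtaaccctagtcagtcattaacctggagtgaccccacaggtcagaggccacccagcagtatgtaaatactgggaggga
Fgf21: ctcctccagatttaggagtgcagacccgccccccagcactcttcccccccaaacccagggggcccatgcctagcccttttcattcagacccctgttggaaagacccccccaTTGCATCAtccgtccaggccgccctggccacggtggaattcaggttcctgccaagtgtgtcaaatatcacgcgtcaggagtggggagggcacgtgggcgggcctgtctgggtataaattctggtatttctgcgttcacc

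Windows of 300 bases around a start site were matched for 8 of the 9 genes, 9 windows in all, and Il15 had none. The letters searched, on both strands, were TGATGNAA for the C/EBP-ATF element, TGANTCA for the AP-1 element, TGACGTCA for the cAMP response element, TGACNNNGC for the antioxidant response element and CATTCC for the M-CAT element. Among 32851 windows the shares with a match were 3.97%, 7.81%, 1.79%, 12.4% and 14.7% in that order. Fgf21 held the C/EBP-ATF letters as TTGCATCA, on the opposite strand, from base -139 to base -132 relative to its start site. Nppb held the M-CAT letters on the opposite strand from base -105 to base -100, inside its annotated gene span and so not printed. A further window of Gdf15, inside its annotated gene span, held the M-CAT letters, and its printed window held none of the 5 motifs. Il6 held an AP-1 match from base -249 and Fgf9 an antioxidant response match from base -64. A match is a description of the letters and not of a bound site.

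Nppb and Gdf15 were high on every Rpt3-/- array and near background on every Rpt3+/+ array. Fgf9 was higher in Rpt3-/- muscle by its brighter probe, and Fndc5 was lower. Il6, Il15 and Metrnl did not pass the threshold of the fit, and Fgf21 was near background in all mice. In counts, 7 of the 8 measured genes passed the filter on low signal, a probe above background on at least 3 arrays. Of those 7 genes 3 were called higher and 1 lower in the fit that calls 19.3% of all genes, and the groups did not overlap for 4 of them. Nppb and Gdf15 could pass that filter through the Rpt3-/- arrays alone, and nothing is read from these counts, since the comparison entered the choice of the genes.

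**Figure D1:**
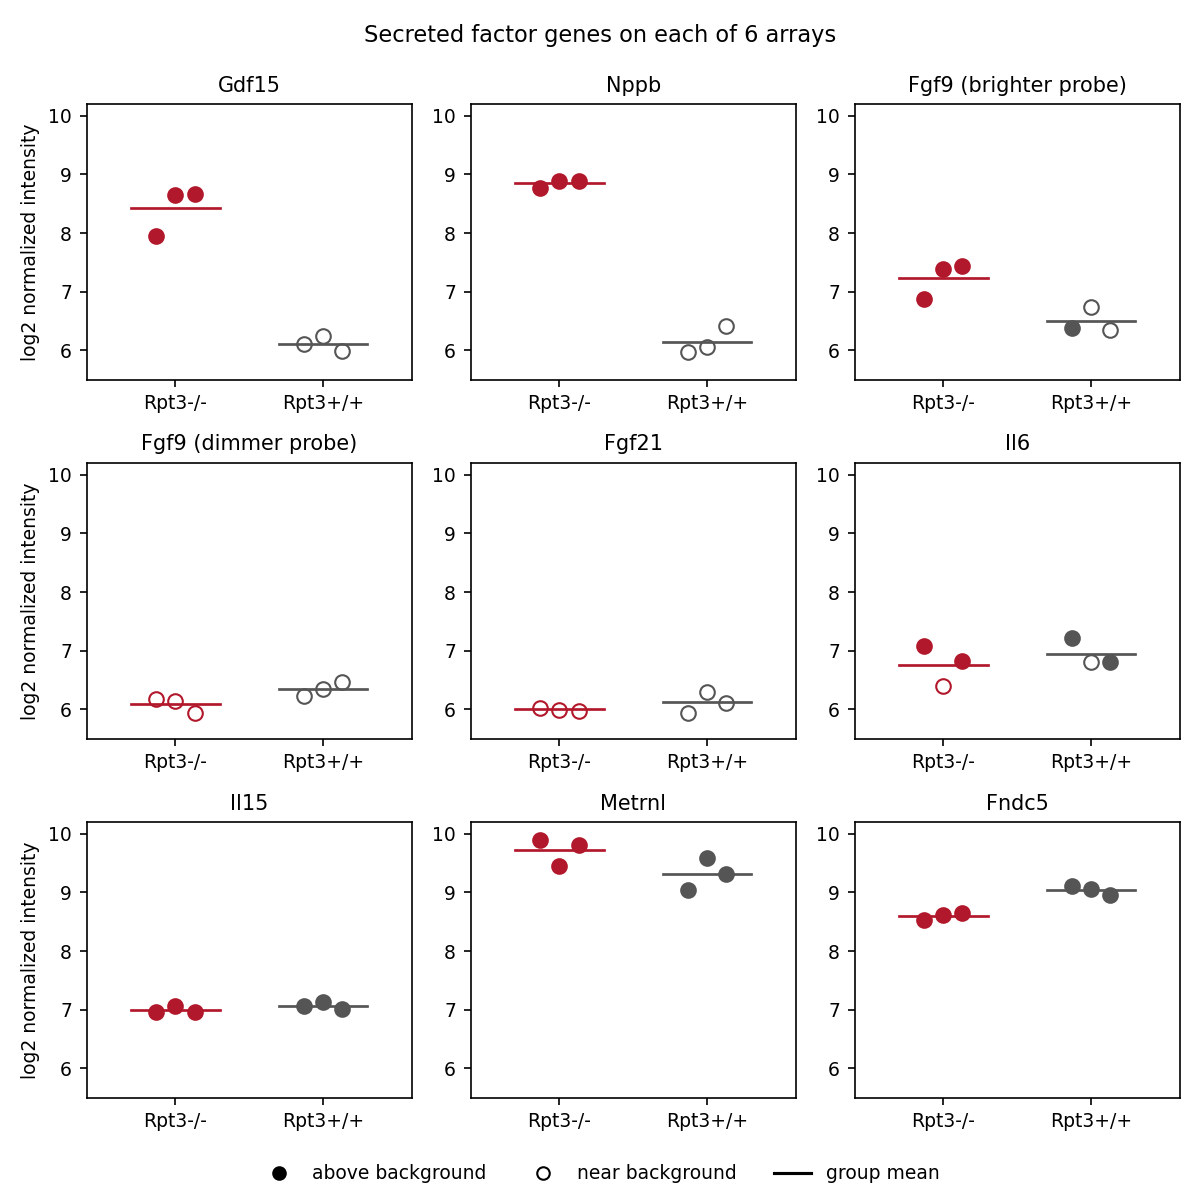
Log2 normalized intensity (vertical axis) of each probe on the 3 Rpt3-/- arrays (left, red) and the 3 Rpt3+/+ arrays (right, grey), with the group mean as a line. Filled points were above background and open points near background: Nppb and Gdf15 are filled on all Rpt3-/- arrays and open on all Rpt3+/+ arrays, and Fgf21 is open on all 6 arrays.

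Nppb encodes the brain natriuretic peptide, a cardiac hormone and a marker of ventricular load. Its log2 normalized intensity was 8.77, 8.89 and 8.89 on the Rpt3-/- arrays, against 5.97, 6.06 and 6.41 on the Rpt3+/+ arrays. The 3 Rpt3-/- arrays lay within a narrow band and the groups were far from overlapping. Before normalization the background-subtracted spot intensity was 421, 478 and 464 on Rpt3-/- arrays and 10.7, 10 and 28.2 on Rpt3+/+ arrays, and the scanner software called all 3 Rpt3+/+ spots near background. The fitted log2 difference was 2.71 (SE 0.15), a value that depends on the offset of the background correction, since no Rpt3+/+ array measured Nppb above background. The fold is therefore given as a lower bound, the mean of the Rpt3-/- arrays over the lowest signal above background on each Rpt3+/+ array. It is not a strict limit, since some spots called near background read above that signal. Il6 on Rpt3+/+ array 2 did so, at 6.81 against 6.74. By this bound Nppb was at least 5.11-fold higher in Rpt3-/- muscle in the fit reported, and at least 5.06-fold with no background correction. With arrays centred on the cytoskeletal gene Actb the fitted log2 difference was 1.98. That is smaller than these bounds, and no bound was computed for that setting. The offset of 50 in the background correction compresses low signals, and the bound was at least 11.4-fold in the authors' own value table and at least 10.6-fold with no offset. In that table Nppb averaged 417 ± 21.1 in Rpt3-/- mice and 18.3 ± 12.3 in Rpt3+/+ mice (SD, n = 3 each).

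Gdf15 encodes the hormone that signals through GFRAL in the hindbrain. Its log2 normalized intensity was 7.96, 8.65 and 8.67 on the Rpt3-/- arrays, against 6.10, 6.25 and 5.98 on the Rpt3+/+ arrays. Rpt3-/- array 1 was the lowest of its group and still well above every Rpt3+/+ array. The background-subtracted intensity was 205, 394 and 386 on Rpt3-/- arrays and 18.4, 14.9 and 9.44 on Rpt3+/+ arrays, with all Rpt3+/+ spots called near background. The fitted log2 difference was 2.31 (SE 0.19) and likewise depends on the offset, and it was 1.56 with arrays centred on Actb. As a bound Gdf15 was at least 3.81-fold higher in Rpt3-/- muscle, and at least 3.79-fold with no background correction. The difference centred on Actb was smaller than these bounds. The bound was at least 8.07-fold in the authors' value table and at least 7.50-fold with no offset. The table gave 305 ± 91.7 in Rpt3-/- mice and 16.1 ± 6.38 in Rpt3+/+ mice (SD, n = 3 each). The probe carries no symbol in the platform annotation and was named through its RefSeq accession. Nppb and Gdf15 shared their pattern of detection, above background on all 3 Rpt3-/- arrays and no Rpt3+/+ array, with 1.18% of the genes tested, or 174 genes. The reverse pattern was found for 12 genes, or 0.0815%. It needs a spot above background on Rpt3+/+ array 2, where the share of such probes was lowest (56.7%). The effect of that array on these counts was not tested.

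**Figure D2:**
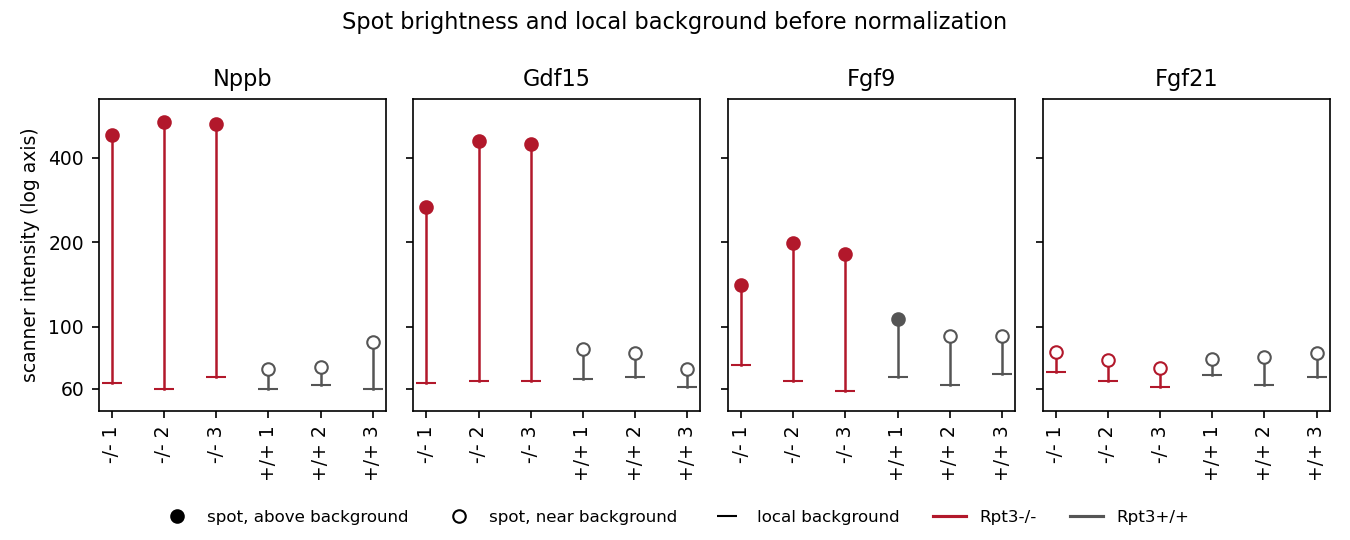
Scanner intensity on a log axis for the spots of Nppb, Gdf15, Fgf9 (brighter probe) and Fgf21 on each array, Rpt3-/- arrays (red) left of Rpt3+/+ arrays (grey), with the local background as a dash. Filled spots were above background: local backgrounds lie between 59.0 and 73.0 across the 4 panels, so the differences of Nppb and Gdf15 lie in the spots.

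The fibroblast growth factors gave unequal readings. Fgf9, which signals between neighboring cells and is best known from the developing lung, testis and skeleton, had a log2 normalized intensity of 6.88, 7.39 and 7.43 on Rpt3-/- arrays by its brighter probe, against 6.39, 6.74 and 6.35 on Rpt3+/+ arrays. Only Rpt3+/+ array 1 measured it above background in that group, and the gap between the groups was 6.88 against 6.74. The log2 difference was 0.74 (SE 0.18), a 1.67-fold higher intensity in Rpt3-/- muscle, and it did not pass without Rpt3-/- array 2 (0.66), Rpt3-/- array 3 (0.64) or Rpt3+/+ array 3 (0.67). The dimmer Fgf9 probe was near background on all 6 arrays and read 6.17, 6.15 and 5.94 on Rpt3-/- arrays and 6.23, 6.34 and 6.46 on Rpt3+/+ arrays. The brighter and the dimmer probe thus pointed in opposite directions, the dimmer at a level where neither group was detected.

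Fgf21, the fasting and stress hormone, was near background on all 6 arrays and was not tested. Its background-subtracted intensity was 12.1, 11.9 and 10.1 on Rpt3-/- arrays and 9.56, 15.9 and 14.9 on Rpt3+/+ arrays. On the log2 scale it read 6.03, 6.00 and 5.98 on Rpt3-/- arrays and 5.94, 6.29 and 6.12 on Rpt3+/+ arrays, below the lowest signal called above background on each of those arrays, which was 6.31 to 6.42 on Rpt3-/- arrays and 6.28 to 6.74 on Rpt3+/+ arrays. A difference in Fgf21 below that level was not detectable with this probe, and no fold is given.

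The myokines Metrnl and Fndc5 were above background on all 6 arrays. Fndc5 encodes the membrane protein whose released ectodomain is irisin. Its log2 normalized intensity was 8.54, 8.61 and 8.65 on Rpt3-/- arrays, against 9.12, 9.06 and 8.95 on Rpt3+/+ arrays, and the groups did not overlap. The log2 difference was -0.44 (SE 0.12), so that the intensity in Rpt3+/+ muscle was 1.36-fold that in Rpt3-/- muscle. Before normalization the background-subtracted values did overlap, at 340, 383 and 382 on Rpt3-/- arrays and 621, 310 and 393 on Rpt3+/+ arrays, where Rpt3+/+ array 2 was the dimmest array of the 6. The call was lost without Rpt3-/- array 1 (-0.40), 2 (-0.45) or 3 (-0.46) or Rpt3+/+ array 3 (-0.49), and with arrays centred on the median (-0.31).

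Metrnl encodes a secreted protein that muscle and fat release after exercise or in cold. It read 9.89, 9.46 and 9.80 on Rpt3-/- arrays and 9.05, 9.59 and 9.32 on Rpt3+/+ arrays, and the groups overlapped through Rpt3-/- array 2 and Rpt3+/+ array 2. The log2 difference of 0.40 (SE 0.17) did not pass the threshold, and it was -0.18 on arrays centred on the cytoskeletal gene Actb. It passed without Rpt3+/+ array 2 (0.53) and with median centring (0.59). The background-subtracted intensities before normalization were 1035, 727 and 970 on Rpt3-/- arrays and 591, 477 and 521 on Rpt3+/+ arrays, without overlap.

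The cytokine genes Il6 and Il15 did not pass the threshold. Il6, which contracting muscle and macrophages can release, read 7.07, 6.40 and 6.82 on Rpt3-/- arrays and 7.22, 6.81 and 6.81 on Rpt3+/+ arrays, with 2 arrays of each group above background. The spread within the groups was larger than the difference of -0.19 (SE 0.19). Il15, a cytokine of natural killer and memory T cells, read 6.97, 7.07 and 6.95 on Rpt3-/- arrays and 7.06, 7.14 and 7.01 on Rpt3+/+ arrays. The Il15 readings were close to each other on all 6 arrays and all were above background, with a difference of -0.07 (SE 0.12).

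**Figure D3:**
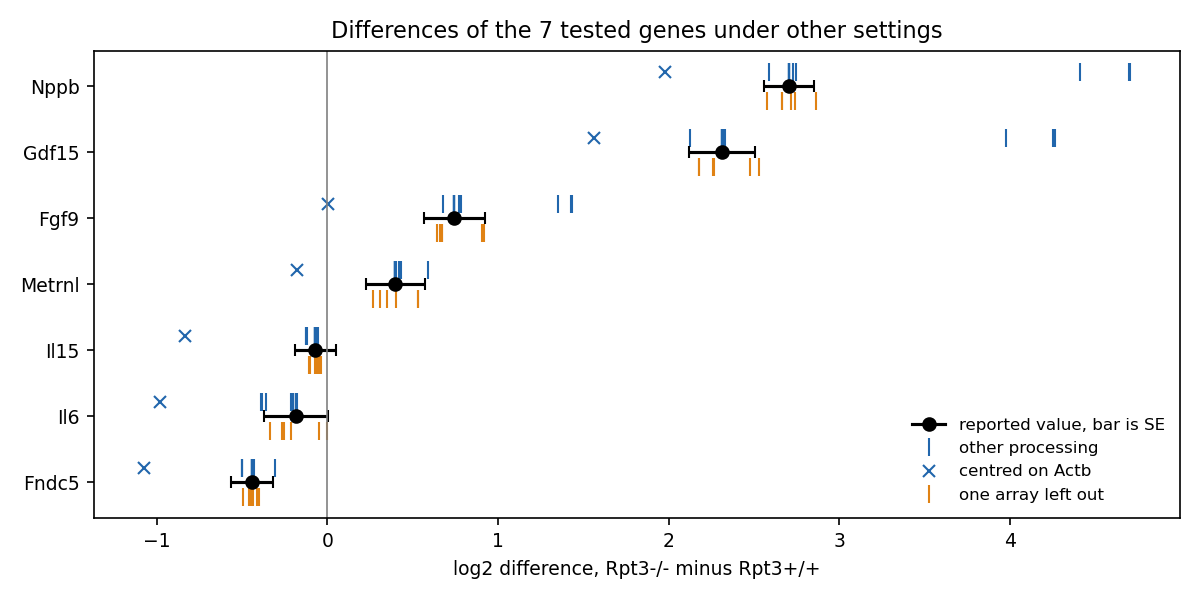
Log2 difference, Rpt3-/- minus Rpt3+/+, of the 7 genes tested (horizontal axis), with the reported value and its SE as a black point and bar, other processing in blue above it and fits without 1 array in orange below it. Nppb and Gdf15 stay above 1.5 in every setting in which they were tested, whereas Metrnl falls to -0.18 and Fgf9 to 0.00 with arrays centred on Actb (crosses).

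Actb itself was 13.07 ± 0.11 in Rpt3-/- and 12.62 ± 0.07 in Rpt3+/+ muscle after quantile normalization (SD, n = 3 each). Centring on Actb started from median-centred arrays instead, so these means do not give the size of its shift. It moved the median of all genes to -0.72 on the log2 scale. With that centring the order of the 7 genes was led by Nppb (1.98) and Gdf15 (1.56), and Fndc5 was lowest at -1.08.

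The receptors and partners of these factors were set out in lists, whose choice was made with earlier results of these data known. Together they held 130 tested genes, of which 18 were higher and 8 lower, a share of 20.0% called against 19.3% of all genes. No receptor gene of Gdf15 or the FGFs passed the threshold: 5 of 9 were tested and 0 were called, with a median log2 difference of -0.08 against -0.01 over all genes. Gfral, the Gdf15 receptor, had no named probe. Klb, the co-receptor of Fgf21, differed by -0.32 (SE 0.14, adjusted p = 0.134 from limma) and Fgfr1 by 0.27 (SE 0.13, adjusted p = 0.184 from limma). Of 20 other FGF ligand genes 13 were tested, 0 were called and the median was -0.12, with 5 ligands at background on all arrays.

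The natriuretic peptide system around Nppb showed 0 calls among 8 tested genes of 14, with a median of -0.11. Npr1, which encodes the guanylyl cyclase receptor for Nppa and Nppb products, was above background on all 6 arrays and differed by 0.02 (SE 0.12, adjusted p = 0.942 from limma). Npr2, the receptor for C-type natriuretic peptide, differed by -0.24 (SE 0.18, adjusted p = 0.394 from limma). Npr3, the clearance receptor, and Nppc, which encodes C-type natriuretic peptide, were near background on all 6 arrays. Ostn, which encodes the clearance receptor ligand musclin, had no named probe.

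The list for the IL-6 family held 4 higher and 2 lower genes of 16 tested, with a median of 0.16. Il11ra1, which encodes the IL-11 receptor subunit, was 0.85 higher on the log2 scale (SE 0.14, adjusted p = 0.00205 from limma), and Socs3, a feedback inhibitor of the pathway, was 0.70 higher (SE 0.21, adjusted p = 0.0402 from limma). The kinase genes Jak2 and Jak1 were lower, by -0.61 (adjusted p = 0.0117 from limma) and -0.59 (adjusted p = 0.00889 from limma). Ctf1, which encodes cardiotrophin 1, was 0.54 higher (adjusted p = 0.0205 from limma). The receptor genes Il6ra and Il6st differed by -0.10 (adjusted p = 0.711 from limma) and -0.04 (adjusted p = 0.886 from limma). A dimmer probe of Il6st, above background on all 6 arrays, read -0.49. Without Rpt3-/- array 1, Rpt3-/- array 3 or Rpt3+/+ array 3, 1 gene of this list was called higher, and without Rpt3+/+ array 3 none of its genes was called lower.

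Of the IL-15 receptor and common gamma chain genes 9 were tested and 0 called, with a median of 0.14, and Il15ra, the IL-15 receptor chain, differed by 0.14 (SE 0.12, adjusted p = 0.477 from limma). Among 10 tested partners of Metrnl and Fndc5, Itgav, a subunit of an integrin reported as an irisin receptor, was 0.61 higher (SE 0.14, adjusted p = 0.0118 from limma). Metrn, the paralog of Metrnl, was lower, with a log2 difference of -0.85 (SE 0.18, adjusted p = 0.00774 from limma), while Metrnl itself read 0.40 or, centred on Actb, -0.18. Itgav did not pass without Rpt3-/- array 1, Rpt3-/- array 3 or Rpt3+/+ array 3. Neither Itgav nor Metrn passed by the methods' test.

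The ATF4 branch of the integrated stress response, which controls Gdf15 and Fgf21 in other settings, had 4 higher and 1 lower gene of 23 tested. The median was 0.11, and the fit calls 19.3% of all genes. The other 18 genes did not pass, Asns (0.30), Trib3 (-0.15) and Chac1 (-0.22) among them. Eif4ebp1, a translation repressor, was 1.54 higher (SE 0.15, adjusted p = 0.00012 from limma) and Ppp1r15a, the phosphatase subunit that ends the response, 1.45 higher (SE 0.14, adjusted p = 0.000147 from limma). The transcription factor gene Atf3 was 0.80 higher (adjusted p = 0.00217 from limma), and Ddit3, which encodes CHOP, was 0.52 higher (adjusted p = 0.0304 from limma). Shmt2, a serine metabolism enzyme gene of mitochondria, was lower with a log2 difference of -0.57 (adjusted p = 0.035 from limma), and it did not pass without Rpt3-/- array 1, Rpt3-/- array 3 or Rpt3+/+ array 3. It also did not pass with background subtraction, with no offset, with median centring, in the authors' table or by the methods' test. The message of Atf4 differed by -0.02 (SE 0.13, adjusted p = 0.937 from limma).

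**Figure D4:**
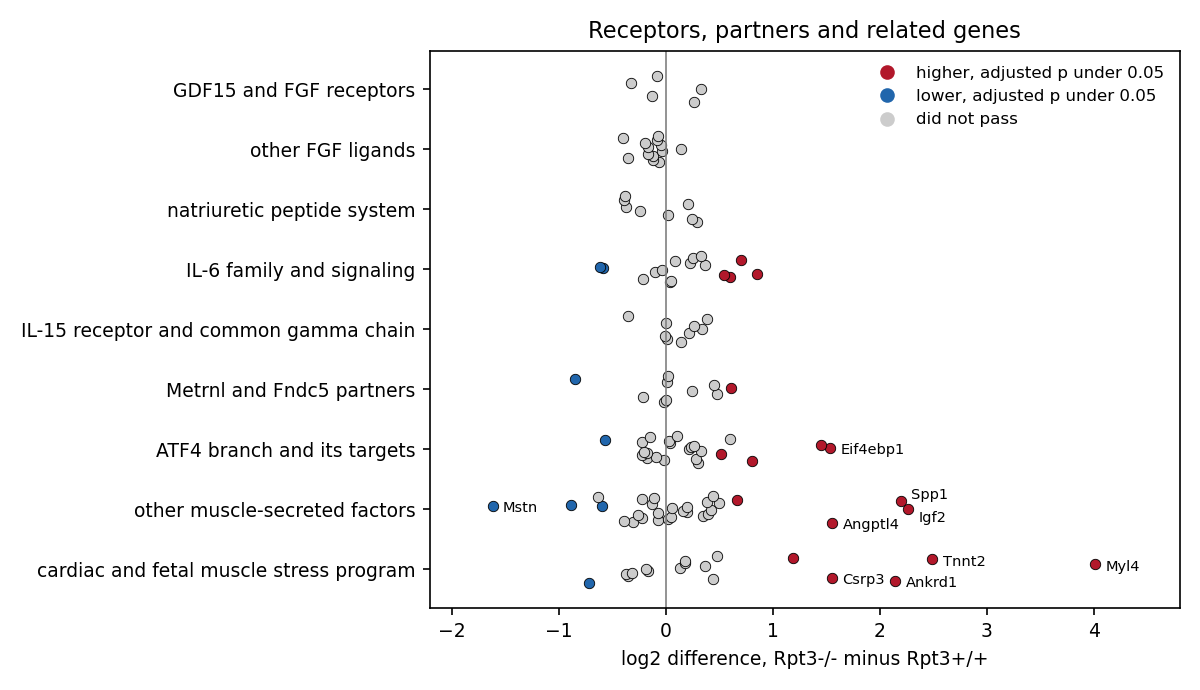
Log2 difference, Rpt3-/- minus Rpt3+/+ (horizontal axis), of each tested gene in 9 lists of receptors, partners and related genes, 1 row per list. Red and blue points passed an adjusted p of 0.05 as higher and lower, and grey points did not: the receptor, FGF ligand, natriuretic and IL-15 rows hold no colored point, and the cardiac row reaches 4.01 (Myl4).

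Among 29 tested genes for other factors that muscle secretes, 4 were higher and 3 lower with a median of 0.05. Igf2, the fetal insulin-like growth factor, was 2.27 higher (SE 0.15, adjusted p = 1.4e-05 from limma), Spp1, which encodes osteopontin, 2.19 higher (SE 0.28, adjusted p = 0.00063 from limma) and Angptl4, an inhibitor of lipoprotein lipase, 1.55 higher (adjusted p = 0.000615 from limma). Mstn, which encodes myostatin, read 9.38, 9.82 and 9.55 on Rpt3-/- arrays and 11.25, 11.16 and 11.19 on Rpt3+/+ arrays, a log2 difference of -1.62 (SE 0.14, adjusted p = 7.76e-05 from limma). Myostatin belongs to the same superfamily as the Gdf15 product, and the groups of Mstn did not overlap either. These values are RNA, and the study reports the opposite direction for the protein. By immunoblotting, myostatin was increased in Rpt3-/- gastrocnemius.

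Cardiac and fetal muscle genes, listed because Nppb belongs to that program in the heart, held 5 higher and 1 lower gene of 17 tested, with a median of 0.18. Myl4, the atrial and embryonic myosin light chain gene, was 4.01 higher (SE 0.19, adjusted p = 3.11e-06 from limma). Tnnt2, cardiac troponin T, was 2.49 higher (SE 0.23, adjusted p = 9.61e-05 from limma) and was above background on 1 of 3 Rpt3+/+ arrays. Ankrd1, a stretch-responsive titin-binding protein gene, was near background on all 3 Rpt3+/+ arrays. By the same bound Ankrd1 was higher in Rpt3-/- muscle by at least 3.71-fold. The bound was at least 3.64-fold with no background correction and at least 7.81-fold in the authors' table. Ankrd1 passed the filter on low signal through the Rpt3-/- arrays alone, so its place among the 5 higher genes is no support for the list. Csrp3, a muscle LIM protein gene, was 1.55 higher (adjusted p = 0.000144 from limma), and Actc1, cardiac actin, was lower with a difference of -0.72 (adjusted p = 0.00382 from limma).

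Markers of other cells in the sample were measured beside these genes. Of 8 heart muscle markers measured, Myh6, Mybpc3 and Hand2 were at background on all 6 arrays, 3 were tested and 0 were called. The summed intensity of the 8 was 719 to 800 on Rpt3-/- arrays and 777 to 846 on Rpt3+/+ arrays. The 3 tested, Tnni3, Bmp10 and Tbx20, were dim but above background on all 6 arrays. Their mean log2 intensities were 6.84, 7.23 and 7.23 on Rpt3-/- arrays and 7.01, 7.24 and 7.48 on Rpt3+/+ arrays. The part of heart tissue in the level of Nppb was not tested. Of 13 macrophage markers measured 10 were tested and 8 were higher, with summed intensities of 6327 to 9333 on Rpt3-/- arrays and 2616 to 2945 on Rpt3+/+ arrays, and none of the 13 was at background on all arrays. Of 5 tested adipocyte markers 3 were higher, with sums of 9041 to 10253 on Rpt3-/- arrays and 6571 to 7591 on Rpt3+/+ arrays, and Lep was at background on all arrays. Of 7 tested endothelial and fibroblast markers 2 were higher, the fibroblast genes Col3a1 (0.55) and Pdgfra (0.78). The other 5 did not pass. They were the fibroblast genes Col1a1 (0.14) and Lum (0.42) and the endothelial genes Pecam1 (-0.67), Kdr (-0.05) and Tie1 (0.03). Sums over the 8 measured were 19274 to 20051 on Rpt3-/- arrays and 12891 to 15318 on Rpt3+/+ arrays. Col3a1 was the brightest of these 7 tested markers, at a mean log2 intensity of 13.83 on Rpt3-/- and 13.28 on Rpt3+/+ arrays. It weighs most in these sums. Of 5 liver markers measured, Alb, Apoa1 and Ttr were at background on all 6 arrays, as was Fgf21. The part of macrophages, adipocytes and stromal cells in the levels of Gdf15, Nppb, Fgf9 and Metrnl was not tested.

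The genes most like Gdf15 over the 6 arrays, by Pearson's r of log2 intensity, were Msrb2 (r = 0.999), Arl6ip5 (r = 0.999), Mrps18a (r = 0.999), LTO1 (r = 0.998) and Gclm (r = 0.998). Those most like Nppb were Sbds (r = 0.999), Capns1 (r = 0.997), Pla2g6 (r = 0.997), Tbce (r = 0.997) and Srp9 (r = 0.997). Gdf15 and Nppb correlated with each other at r = 0.974. The 6 arrays fall into 2 groups, so any gene that separates them scores high here, and the values, which for Gdf15 and Nppb include 3 arrays near background, are a description. The log2 differences of these 10 genes ran from 0.31 (Pla2g6) to 1.56 (Gclm).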

How the data were processed

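Muscle RNA of 3 Rpt3-/- and 3 Rpt3+/+ mice was hybridized to CodeLink mouse bioarrays, 1 per mouse and slide. The authors deposited scanner reports with the spot intensity, local background intensity and a quality flag from CodeLink Expression Analysis 5.0.0.31312, without normalization between arrays, and a table of linear intensities. Columns of that table correlated with their own array at 0.998 or more and with another array at 0.942 or less, all had a median of 89.0, and at least 96.5% of each column's sorted values equalled those of the first within 0.01, as quantile normalization gives. In limma 3.58.1 (R 4.3.3) background was corrected by normexp (offset 50), arrays were quantile normalized and log2 intensities fitted with lmFit and eBayes, with Benjamini-Hochberg adjustment over 14724 genes. The 1260 control spots entered the background correction only. A gene was tested where a probe had the flag for good signal on at least 3 arrays, and its brightest such probe stood for it. A probe was called near background by the scanner's flag. Of 34967 transcript probes, 21615 had 1 symbol, 681 had several and stayed unnamed, 536 were named through their RefSeq accession and 12135 had no name. At an unadjusted p under 0.05 there were 4718 genes. Python 3.11.15 read the files. The genes and all lists were chosen with earlier results of these data known. Named genes were every gene of the set, up to 4 called genes with the largest change in each list, chosen receptors, the 5 genes most correlated with Gdf15 and with Nppb, Psmc4 and Actb. A gene that this rule takes is not reported here. Ddit3, Atf4, Asns, Trib3, Chac1, Jak1, Ctf1, Actc1 and the neighbors of Nppb and Gdf15 were named outside this rule, after their values were seen. Marker genes of cell types were also named outside this rule. The steps were tested on simulated data. Alternatives were other background corrections, normalizations and filters, the authors' table, averaged probes, trended and robust variances, the methods' test (Student's unpaired test), the replicate number as a block and fits without 1 array. Slide could not be fitted as a block, since each slide held 1 array. The labels give separate mice. Precision is limited by 3 arrays per group and by how far spots stood above background.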

Additional observations from a re-analysis of the deposited data

How the results depend on the processing

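The fitted log2 difference ran from 1.56 to 4.27 for Gdf15 and from 1.98 to 4.71 for Nppb over the 20 alternatives that gave one. These are descriptions, since both genes were selected on this comparison and passed the filter on low signal through the Rpt3-/- arrays alone. Where a probe had to be above background on all 6 arrays, 3 genes of the set were tested and 1, Fndc5, was called, since Gdf15, Nppb and Fgf9 were near background on Rpt3+/+ arrays. With median centring 2558 genes were higher and 603 lower, against 1869 higher and 968 lower in the fit reported. With centring on Actb 328 genes were higher and 10327 lower, 87 related genes were called against 26, and Metrnl turned to -0.18, while Fgf9 was lost (0.00) and Il6 (-0.98) and Il15 (-0.84) passed as lower. The methods' test called 940 genes higher, 427 lower and 17 related genes, and Fgf9 was lost. Leaving out 1 array gave 1086 to 2320 genes higher, 388 to 1445 lower, 2 to 5 genes of the set and 15 to 37 related genes. The count of genes lower was 480 without Rpt3-/- array 1, 549 without Rpt3-/- array 3 and 388 without Rpt3+/+ array 3. The count higher was 1157 without Rpt3-/- array 3 and 1086 without Rpt3+/+ array 3, and 15 related genes were called without the last. Genes of the set called numbered 2 without Rpt3-/- array 2, Rpt3-/- array 3 or Rpt3+/+ array 3. The cause was not tested. Arrays of the same replicate number did not deviate together (correlations of 0.13, -0.44 and 0.10), so the numbers are not taken as pairs. With the replicate number as a block, 1738 genes were higher and 888 lower, and of the set Fndc5 no longer passed the threshold. Counting irregular and saturated spots as above background, an alternative chosen after seeing the data, left 1870 genes higher and 967 lower. With 3 arrays per group and probes near background in Rpt3+/+ muscle, the sizes of the Gdf15 and Nppb differences are given as bounds. These depend on the scale and are not strict limits.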

Other observations

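The genes beside Nppb and Gdf15 on their chromosomes, 3 tested genes on each side in the order of the RefSeq gene table, were looked at after the values of both were known. Around Nppb, Mfn2, which encodes the mitochondrial fusion protein mitofusin 2, was lower in Rpt3-/- muscle with a log2 difference of -0.62 (SE 0.14, adjusted p = 0.0111 from limma). The other 5 neighbors did not pass, Clcn6 at 0.27 and Plod1 at 0.04 among them. Around Gdf15, Lrrc25 was 0.43 higher (SE 0.13, adjusted p = 0.0359 from limma) and the other 5 did not pass, Lsm4 at 0.32 and Isyna1 at 0.12 among them.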
